A study of Homo sapiens with 11 samples.

Results

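The 44 genes described here were lower in RT4 cells during nickel exposure than in untreated cells. By 2 weeks after nickel was removed, they were back to a ratio of at least 0.8 to untreated cells, with no upper limit. They were chosen from measured values. A gene was taken when its (TPM + 0.5) ratio of Ni-E to UT was 0.6 or less and its ratio of Ni-W to UT was 0.8 or more within each of the 2 replicate numbers, with a mean of at least 2 TPM in UT cells. TPM is an expression level normalized for transcript length and library depth. Of 28252 listed genes, 11947 had a mean of at least 2 TPM in UT cells, and these are called expressed below. Of the expressed genes, 324 (2.71%) met the limit of 0.6 in both replicates during exposure, and the 44 members are 13.6% of those. Since the same RT4 values chose the members, the RT4 levels and ratios below are descriptions and are not tested.

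RT4 is an established line of human bladder cancer cells from a non-invasive tumour. UT cells received no nickel, Ni-E cells were grown for 6 weeks with 100 μM NiCl2, and Ni-W cells had this exposure followed by 2 weeks without nickel, each with 2 RNA-Seq replicates. The replicates are 2 biological replicates according to the methods of the study. H3K4me3, a histone mark of active promoters, was measured by ChIP-Seq in BEAS-2B, an immortalized line of bronchial epithelial cells, with a single library for every condition. UT and Ni-E had the same meaning there. The BEAS-2B Ni-W cells were a single population grown from 1 colony and kept without nickel for more than 6 months, although the treatment label also names 2 weeks for both lines.

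Estimated counts summed to 18065667 and 25721265 in the UT libraries, 18280556 and 27736454 in Ni-E and 17075833 and 26543400 in Ni-W, so that the second replicate was the deeper one in each condition. The identity of the line was checked with its markers. All 15 urothelial markers had a mean of at least 1 TPM over the 6 libraries, led by KRT7 with 5348.35 TPM. Some were lower in Ni-E and others were not. KRT20 was at 11.07 and 11.27 TPM in UT, 0.25 and 0.11 in Ni-E, and 1.59 and 1.37 in Ni-W. UPK1A was at 70.57 and 92.53, 16.1 and 18.47, and 39.58 and 44.42 TPM in the same order. KRT7 was at 4383.53 and 4779.09 TPM in UT and 5451.8 and 5593.33 in Ni-E. The leukocyte markers CD3E and MS4A1 were at 0 in all 6 libraries, and PTPRC, which marks leukocytes in general, did not exceed 0.04 TPM. The 11 fibroblast and smooth muscle markers summed to 8.51 and 8.7 TPM in UT, 41.18 and 40.2 in Ni-E, and 46.67 and 36.65 in Ni-W, most of it ACTA2, with CNN1, COL1A2 and DCN at 0. The 9 leukocyte markers summed to 13.08 and 11.29, 19.47 and 15.8, and 23.65 and 21.59 TPM in the same order, and CD68 was the most abundant of them. ITGAM, a myeloid integrin of the same list, was at 4.94 and 3.71 TPM in UT, 6 and 4.94 in Ni-E, and 9.77 and 7.92 in Ni-W. Neither sum returned to its UT value in Ni-W cells, and the part of these markers in the members' levels was not tested. In bulk RNA-Seq, fewer cells that make a transcript and less of it in each cell cannot be told apart.

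Urothelial cells line the bladder, and their differentiated state rests on plaque proteins, keratins and a secretory surface programme. Among the genes an epithelium of this kind can express are trefoil factors, which protect mucosal surfaces, secreted proteases and their inhibitors, and chemokines with their receptors. Mitotic genes such as PLK1 and KIF20A are made mainly in G2 and M phase, when their promoters are active. Promoter elements linked to this timing are the CCAAT box, bound by NF-Y, and the CHR element, bound by the DREAM and MuvB complexes.

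Promoter sequence is shown for 3 members, taken from RefSeq on GRCh38.p14, 250 bases before the start site, 5′ to 3′ on the gene's strand. PLK1 (chr16:23678639-23678888, plus strand) and KIF20A (chr5:138178862-138179111, plus strand) are shown because they are the mitotic members. MMP7 (chr11:102530748-102530997, minus strand) is shown because it had the lowest mean ratio of Ni-E to UT. Capitals mark CCAAT on either strand in PLK1 and KIF20A, TTTGAA (CHR) in PLK1, and TGANTCA (AP-1) and TATAAA (the TATA element) in MMP7, whose matches to CCAAT and TTTGAA are left in lower case.
PLK1: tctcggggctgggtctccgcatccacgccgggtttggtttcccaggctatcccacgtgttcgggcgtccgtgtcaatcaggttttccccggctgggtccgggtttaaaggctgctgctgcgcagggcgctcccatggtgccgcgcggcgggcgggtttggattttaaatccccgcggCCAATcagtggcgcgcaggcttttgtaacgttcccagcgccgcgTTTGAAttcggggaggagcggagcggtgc
KIF20A: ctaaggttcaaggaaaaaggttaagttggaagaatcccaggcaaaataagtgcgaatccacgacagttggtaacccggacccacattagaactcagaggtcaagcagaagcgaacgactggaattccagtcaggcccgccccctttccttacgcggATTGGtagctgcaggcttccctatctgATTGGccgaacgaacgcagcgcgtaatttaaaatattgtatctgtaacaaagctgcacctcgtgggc
MMP7: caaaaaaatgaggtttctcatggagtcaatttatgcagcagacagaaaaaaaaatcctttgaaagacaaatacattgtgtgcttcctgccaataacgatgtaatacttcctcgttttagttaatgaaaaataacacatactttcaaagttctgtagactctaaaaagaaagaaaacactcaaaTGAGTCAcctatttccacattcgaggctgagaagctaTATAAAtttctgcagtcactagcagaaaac

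The PLK1 promoter held CCAAT at -73 to -69 and TTTGAA at -29 to -24, counted from the first transcribed base at 1 and with no position 0. KIF20A held CCAAT on the opposite strand at -94 to -90 and again at -67 to -63, and these letters of the CHR element were not in its window. In MMP7, the AP-1 letters lay at -67 to -61 and the TATA box at -30 to -25. These are matches of letters, not measured sites.

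All 44 members had both Ni-E TPM values below every UT and Ni-W value, as did 8.55% of all expressed genes, and nothing is read from this, since the choice of members used these values. The median member had a mean UT level of 7.755 TPM, a mean Ni-E/UT ratio of 0.493 and a mean Ni-W/UT ratio of 1.03, with ratios here and below always of TPM + 0.5. Most members were of low abundance. Mean UT levels were under 10 TPM for 28, from 10 to under 40 for 8 and 40 or more for 8. In 13 members at least 1 library had fewer than 30 estimated counts. Together the members took up 0.128% and 0.126% of all estimated counts in UT, 0.0637% and 0.0614% in Ni-E, and 0.128% and 0.13% in Ni-W.

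The depth of the decrease differed among the members. The ratio of Ni-E to UT was 0.5 or less in both replicates for 15 of 44 members. Among expressed genes the share was 1.6%, but the rule took only genes with a low Ni-E/UT ratio, so nothing is read from this difference. All 324 genes that met the same limit during exposure had a median mean Ni-E/UT ratio of 0.416, beside 0.493 in the members. After washout the ratio to UT was above 1 in some members and below 1 in others, as it was among all expressed genes. The Ni-W/UT ratio was above 1 in both replicates for 18 members, below 1 in both for 15, and on both sides of 1 for 11. Among all expressed genes, 35.6% were above 1 in both and 31.1% below 1 in both. The ratio was 1.2 or more in both replicates for 8 members, beside 10.6% of expressed genes. In 9 members both Ni-W values exceeded both UT values (12.4% of expressed genes), and in 5 both were below (13.3%).

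**Figure D1:**
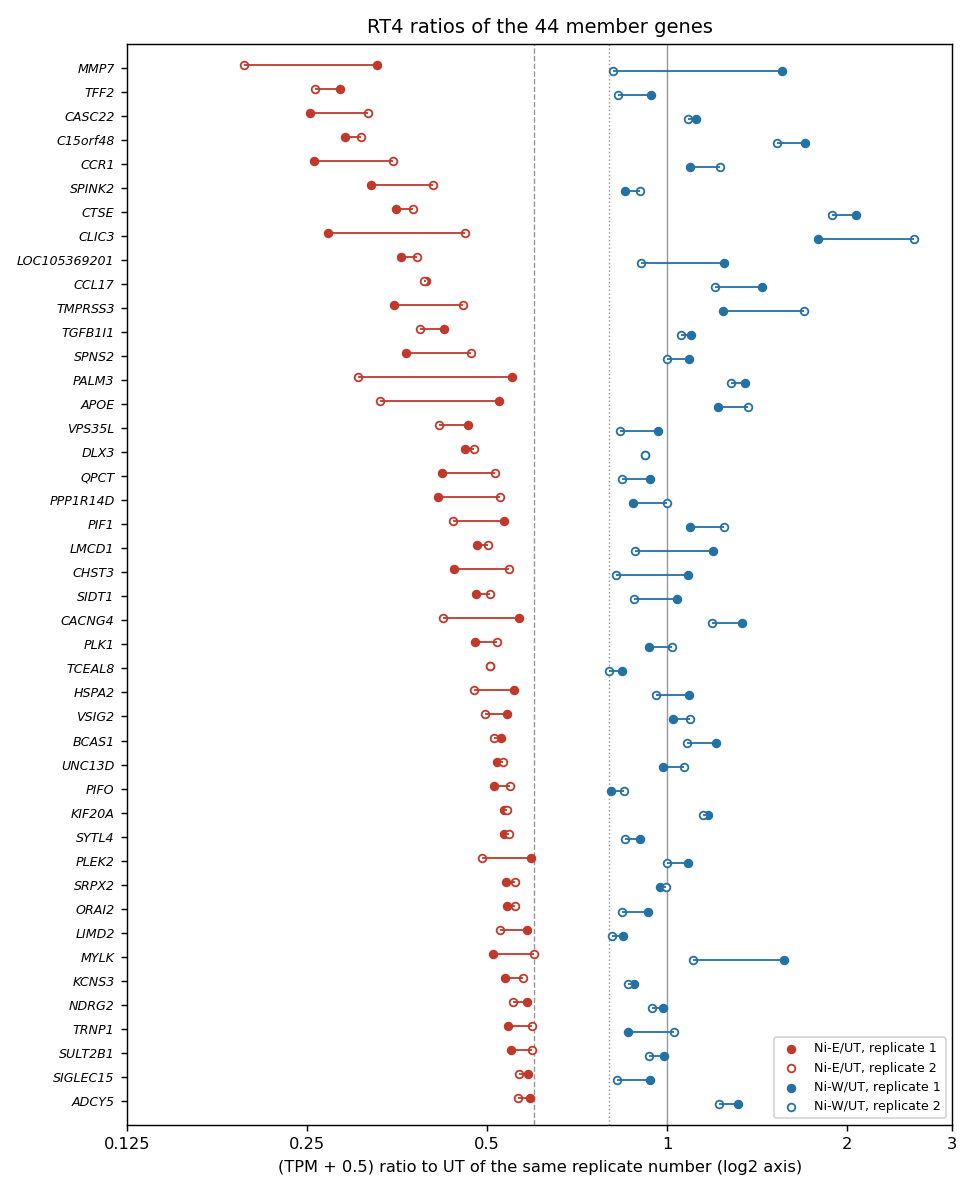
Each row is 1 member, ordered by its mean Ni-E/UT ratio, and the x axis (log2 scale) gives the (TPM + 0.5) ratio to UT of the same replicate number. Red is Ni-E/UT and blue is Ni-W/UT, filled for replicate 1 and open for replicate 2, with lines joining the 2, a dashed line at 0.6, a dotted line at 0.8 and a solid line at 1. MMP7 is at the top with ratios of 0.328 and 0.196, and CLIC3 reaches the highest Ni-W/UT ratio, 2.59.

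The other genes that met the fall limit are the closest comparison. Of the 324, 119 (36.7%) still had ratios of Ni-W to UT of 0.6 or less in both replicates, and 161 met neither outcome. The median mean Ni-E/UT ratio was 0.493 in the members, 0.327 in the 119 and 0.46 in the 161. By choice, the median Ni-W/UT ratios were 1.03, 0.422 and 0.696. The median UT level was similar in the 3 groups, at 7.755, 8.09 and 10.06 TPM, against 19.265 TPM for all expressed genes. Of the 324, 57 met the limit of 0.8 in 1 replicate only.

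**Figure D2:**
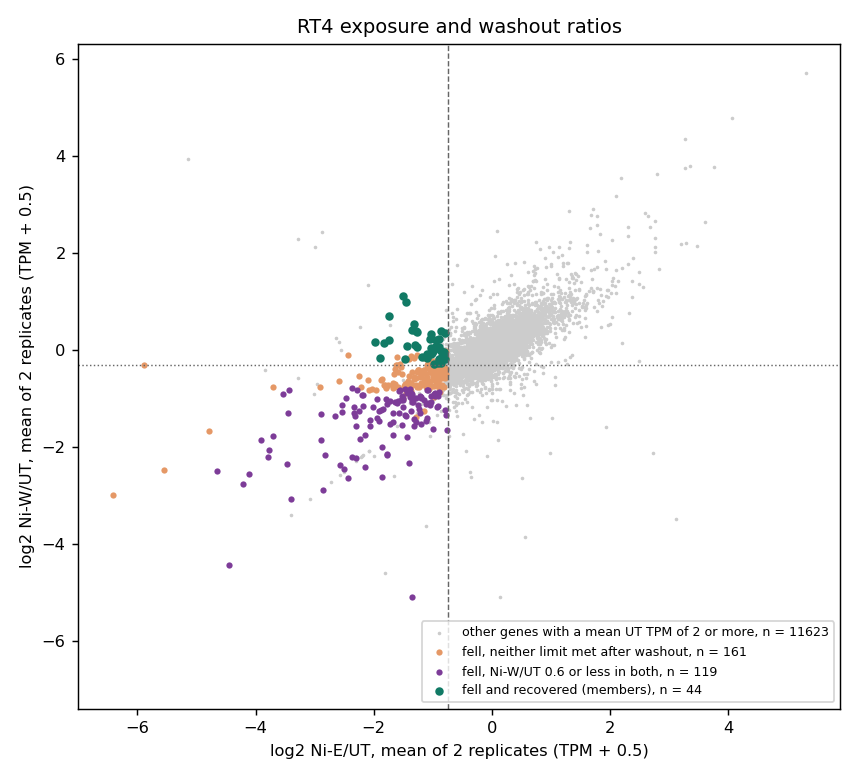
Each point is 1 of 11947 expressed genes, with the log2 Ni-E/UT ratio on the x axis and the log2 Ni-W/UT ratio on the y axis, each the mean of 2 replicates on TPM + 0.5. Green points are the 44 members, purple the 119 genes still low after washout, orange the 161 others that met the fall limit and grey all other genes, with the limits 0.6 (dashed) and 0.8 (dotted). The members lie left of the dashed and above the dotted line.

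Of the groups of roles, the 9 secreted proteins, proteases and protease inhibitors had the lowest median of mean Ni-E/UT ratios, 0.394. MMP7, also called matrilysin, is an epithelial matrix metalloproteinase. It was at 3.68 and 6.29 TPM in UT, 0.87 and 0.83 in Ni-E, and 6.01 and 5.01 in Ni-W, on 8 to 96 estimated counts. Both Ni-E values were below the others, and the UT and Ni-W values overlapped. None of 8 other expressed matrix metalloproteinases met the fall limit, and MMP1 and MMP10, a collagenase and a stromelysin, had Ni-E/UT ratios of 4.05 and 4.12, and of 4.71 and 4.51.

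TFF2, a trefoil factor of mucosal surfaces, was at 8.94 and 10.34 TPM in UT, 2.18 and 2.29 in Ni-E, and 8.38 and 8.49 in Ni-W. Both Ni-W values were just below both UT values. TFF1, its neighbour and relative, was at 8.83 and 9.43 TPM in UT, 4.28 and 3.68 in Ni-E, and 6.05 and 6.64 in Ni-W, and so remained below the limit of 0.8 after washout.

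CTSE encodes cathepsin E, an intracellular aspartic protease found in surface epithelia. It was at 21.64 and 19.02 TPM in UT, 7.3 and 6.84 in Ni-E, and 45.39 and 36.4 in Ni-W, with Ni-W/UT ratios of 2.07 and 1.89. The 3 conditions did not overlap, and the order was Ni-E, UT, Ni-W in both replicates. None of the 12 other expressed cathepsins met the fall limit.

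SPINK2, a Kazal-type serine protease inhibitor, was at 5.07 and 4.26 TPM in UT, 1.28 and 1.43 in Ni-E, and 4.23 and 3.79 in Ni-W. Of its 3 expressed relatives, SPINK1 and SPINK4 also met the fall limit and SPINK5 did not. SPINK4 was at 3.25 and 6.95 TPM in UT, listed at 0 in both Ni-E libraries, and at 0 and 0.28 in Ni-W. SPINK1, the pancreatic secretory trypsin inhibitor, was at 78.76 and 101.49 TPM in UT, 1.67 and 0.56 in Ni-E, and 62.77 and 81.92 in Ni-W. Its Ni-W/UT ratios of 0.798 and 0.808 put it just outside the members, although its decrease was deeper than that of any of them.

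TMPRSS3, a transmembrane serine protease, was at 4.57 and 2.64 TPM in UT, 1.27 and 0.93 in Ni-E, and 5.78 and 4.82 in Ni-W. APOE, a lipid carrier, was at 4.81 and 5.61 TPM in UT, 2.28 and 1.52 in Ni-E, and 5.96 and 7.84 in Ni-W. The chemokine CCL17 was at 4.91 and 6.06 TPM in UT, 1.64 and 2.07 in Ni-E, and 7.3 and 7.38 in Ni-W. In these 3 genes both Ni-W values were above both UT values. QPCT, which forms pyroglutamate at protein N-termini, and the secreted SRPX2 had mean Ni-W/UT ratios of 0.89 and 0.984.

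Receptors, channels and transporters were another 9 members, with a median mean Ni-E/UT ratio of 0.494. CCR1, a receptor for CC chemokines, was at 11.69 and 8.25 TPM in UT, 2.63 and 2.54 in Ni-E, and 12.8 and 10.22 in Ni-W. None of 9 other CC chemokine receptors was expressed at 2 TPM. Of CC chemokines other than CCL17, 2 reached that level. CCL20 had Ni-E/UT ratios of 2 and 1.9 and Ni-W/UT ratios of 4.4 and 4.27. CCL22 was at 4.19 and 2.81 TPM in UT, 2.33 and 1.92 in Ni-E, and 15.05 and 10.62 in Ni-W, with Ni-E/UT ratios of 0.603 and 0.731 that missed the limit.

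CLIC3 is a member of the chloride intracellular channel family. It was at 6.15 and 5.38 TPM in UT, 1.3 and 2.2 in Ni-E, and 11.41 and 14.72 in Ni-W, on 8 to 153 estimated counts. Its mean Ni-W/UT ratio of 2.19 was the highest of the members, and the 3 conditions did not overlap. KCNS3, a modifying subunit of voltage-gated potassium channels, was at 35.72 and 26.94 TPM in UT, 18.94 and 15.27 in Ni-E, and 31.45 and 23.12 in Ni-W. CACNG4, a subunit that regulates calcium channels and AMPA receptors, was at 5.76 and 6.47 TPM in UT, 3.04 and 2.44 in Ni-E, and 7.87 and 7.78 in Ni-W. Both Ni-W values were above UT for CACNG4 and overlapped UT for KCNS3.

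These 3 genes are the members in a list of ion channel genes drawn up by the start of the symbol. The list also takes in genes that are not channels, such as TRPT1, SCNM1 and TRPC4AP, and leaves out others such as ORAI2. Of its 42 expressed genes, 8 met the fall limit, beside 2.71% of all expressed genes, and the 8 include the 3 members. Of the 8, 3 recovered and 2 were still at 0.6 or less, beside 13.6% and 36.7% of all 324 such genes. In edgeR's quasi-likelihood test over all genes, 3 of the 71 tested genes of this list other than the members were called lower and 0 higher in Ni-E vs UT, where 0.71% of all tested genes were called lower and 1.45% higher. At an unadjusted p below 0.05, 8 of the 71 were lower and 6 higher, beside 5.03% and 7.19% of all tested genes. DESeq2 called 5 lower and 2 higher, beside 1.63% and 2.79% of all genes. A call took a change of at least 1.5-fold and an adjusted p below 0.05. The median log2 change of the 71 genes was -0.09, beside -0.01 for all genes.

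VSIG2, an immunoglobulin-domain membrane protein, was the second most abundant member. It was at 92.01 and 107.69 TPM in UT, 49.4 and 53.11 in Ni-E, and 94.03 and 117.81 in Ni-W. The UT and Ni-W values overlapped, and Ni-E was about 0.5 of each. SPNS2, an exporter of sphingosine 1-phosphate, was at 4.47 and 3.71 TPM in UT, 1.32 and 1.48 in Ni-E, and 4.91 and 3.71 in Ni-W. ORAI2, a subunit of store-operated calcium channels, SIDT1, an RNA and lipid transporter family member, and SIGLEC15, a sialic acid binding lectin, had mean Ni-E/UT ratios of 0.548, 0.493 and 0.575.

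Among the 8 genes of signalling and the cytoskeleton, ADCY5 encodes an adenylyl cyclase. It was at 7.98 and 6.99 TPM in UT, 4.51 and 3.72 in Ni-E, and 10.66 and 8.64 in Ni-W, so that both Ni-W values were above UT. MYLK, the myosin light chain kinase, was at 11.74 and 6.57 TPM in UT, 5.75 and 3.73 in Ni-E, and 18.68 and 7.3 in Ni-W. The spread between its replicates was wide, and its larger Ni-E/UT ratio of 0.598 lay nearest to the limit of all members. PALM3, a paralemmin, had a mean Ni-W/UT ratio of 1.32.

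The same group held TGFB1I1 (Hic-5), a focal adhesion adaptor, with 11.57 and 13.85 TPM in UT, 4.62 and 5.05 in Ni-E, and 12.72 and 14.64 in Ni-W. PPP1R14D inhibits protein phosphatase 1, PLEK2 is a pleckstrin that binds membrane lipids, and LMCD1 and LIMD2 are LIM domain proteins. Their mean Ni-E/UT ratios ranged from 0.469 for PPP1R14D to 0.554 for LIMD2.

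Vesicle traffic was represented by SYTL4, a Rab27 effector called granuphilin, UNC13D (Munc13-4), which primes secretory granules, and VPS35L, a subunit of the retriever complex of endosomes. Their mean Ni-E/UT ratios were 0.539, 0.525 and 0.44, and their mean Ni-W/UT ratios 0.876, 1.03 and 0.9. SYTL2, another Rab27 effector, also met the fall limit, and its Ni-W/UT ratios of 1.08 and 0.768 met the limit of 0.8 in 1 replicate only.

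PLK1, the polo-like kinase that drives entry into and passage through mitosis, was at 52.84 and 30.21 TPM in UT, 24.98 and 15.46 in Ni-E, and 49.34 and 30.8 in Ni-W. The first replicate was higher than the second in every condition, and within each the Ni-E value was about 0.5 of UT. PLK2, a stress-responsive relative, had Ni-E/UT ratios of 3.62 and 4.14. Those of PLK3 were 1.41 and 1.45, and those of PLK4 0.993 and 1.38. KIF20A, a kinesin needed for cytokinesis, was at 50.35 and 48.46 TPM in UT, 26.6 and 25.96 in Ni-E, and 58.96 and 55.84 in Ni-W. Its replicates were close, and the 3 conditions did not overlap. PIF1, a DNA helicase, was at 7.84 and 10.13 TPM in UT, 3.95 and 4.16 in Ni-E, and 8.62 and 12.73 in Ni-W.

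PLK1 and KIF20A belong to a list of mitotic genes, and the rule chose them for a low Ni-E/UT ratio. The other genes of the list were therefore not tested against them. Of 55 genes listed for mitosis and chromosome segregation, all expressed, PLK1 and KIF20A were the only ones that met the fall limit. Of all expressed genes, 2.71% met it. The median of the list was 0.956 for Ni-E/UT and 1.28 for Ni-W/UT, beside 0.995 and 1.02 for all expressed genes. During exposure 24 of the 55 were below 1 in both replicates, 9 above 1 in both and 22 divided. The mean Ni-E/UT ratio was below 1 in 34 of the 55 and in 6101 of 11947 expressed genes. After washout 49 were above 1 in both and 0 below 1 in both, beside 35.6% and 31.1% of expressed genes. The next lowest Ni-E/UT ratio after the 2 members was that of AURKA, another mitotic kinase, named here after its value was seen, with a mean of 0.637. edgeR called 0 of the 55 genes in any of the 3 contrasts, and in Ni-W vs Ni-E it called 0 of all 14502 tested genes. Of all tested genes, it called 0.71% lower and 1.45% higher in Ni-E vs UT, and 0.0965% lower and 0.503% higher in Ni-W vs UT. At an unadjusted p below 0.05, 4 of the 53 genes other than the members were lower and 0 higher in Ni-E vs UT, where the shares of all tested genes were 5.03% and 7.19%. In Ni-W vs UT, 7 of the 53 were higher and 0 lower, beside 5.99% and 3.14% of all tested genes. In Ni-W vs Ni-E, 16 of the 53 were higher and 0 lower, beside 3.25% and 2.32%. DESeq2 called 0 of the 53 in Ni-E vs UT, beside 1.63% of all genes lower and 2.79% higher. It called 0 in Ni-W vs UT, beside 2.27% of all genes higher and 0.665% lower. In Ni-W vs Ni-E it called 1 higher, beside 0.606% higher and 0.341% lower. With a replicate block, edgeR called 1 of the 53 lower in Ni-E vs UT and 2 higher in Ni-W vs UT. It then called 13 higher in Ni-W vs Ni-E. The shares of all genes were 5% lower, 5.79% higher and 2.72% higher.

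**Figure D3:**
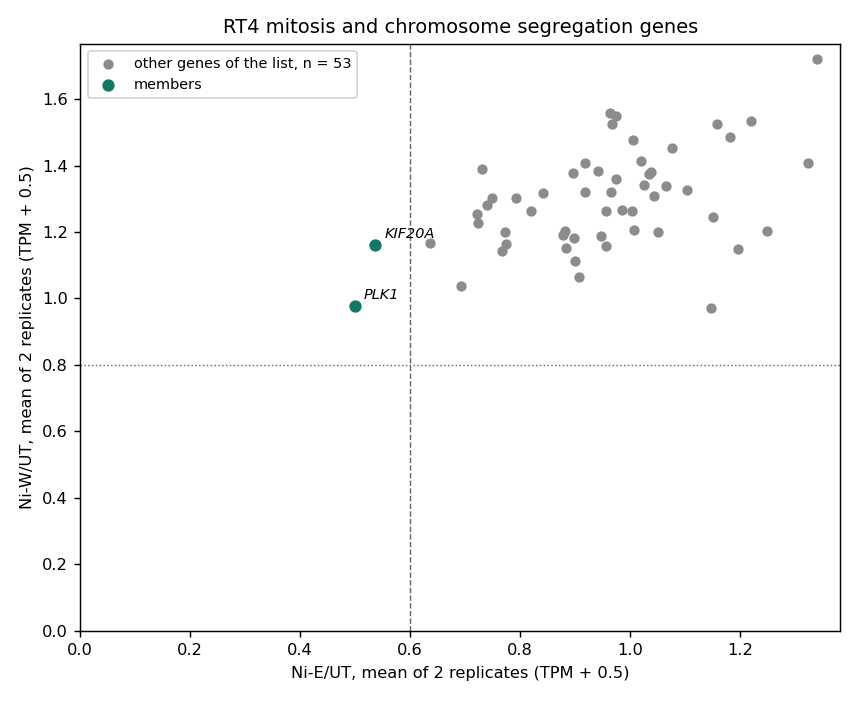
Each point is 1 of 55 genes of mitosis and chromosome segregation, with the mean Ni-E/UT ratio on the x axis and the mean Ni-W/UT ratio on the y axis, on TPM + 0.5. The dashed line is the limit of 0.6 and the dotted line that of 0.8. PLK1 and KIF20A, in green, lie left of the dashed line, while the 53 other genes lie right of it and mostly above 1 on the y axis.

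Among the remaining members, BCAS1, a gene amplified in breast cancer, was the most abundant. It was at 145.44 and 125.2 TPM in UT, 76.63 and 63.92 in Ni-E, and 175.42 and 135.21 in Ni-W. C15orf48, which encodes a mitochondrial microprotein related to the NDUFA4 subunit of complex IV, was at 12.69 and 13.12 TPM in UT, 3.32 and 3.69 in Ni-E, and 21.97 and 20.32 in Ni-W. As for CTSE and CLIC3, its 3 conditions did not overlap and Ni-W was the highest.

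NDRG2, of the N-myc downstream regulated family, was at 57.1 and 50.44 TPM in UT, 33.09 and 27.63 in Ni-E, and 56.27 and 47.6 in Ni-W. Its relatives NDRG1 and NDRG4 instead had Ni-E/UT ratios of at least 1.67 in both replicates, and NDRG1 is a known nickel- and hypoxia-responsive gene. NDRG3 had ratios of 0.911 and 0.96. HSPA2, a chaperone of the HSP70 family, was at 5.84 and 6.35 TPM in UT, 3.01 and 2.75 in Ni-E, and 6.39 and 6.07 in Ni-W. The median mean Ni-E/UT ratio of 20 expressed heat shock and chaperone genes was 1.17. HSPA2 was the only one that met the fall limit, beside 2.71% of all expressed genes.

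TRNP1, a nuclear protein that regulates cell cycle progression, was at 52.76 and 53.65 TPM in UT, 28.35 and 31.7 in Ni-E, and 45.36 and 55.18 in Ni-W. TCEAL8, a protein related to elongation factor SII, was at 45.19 and 42.05 TPM in UT, 22.57 and 21.02 in Ni-E, and 37.87 and 33.54 in Ni-W. Its ratio in the second replicate was exactly at the limit, 0.8, and both its Ni-W values were below both UT values. DLX3, a homeobox factor of epithelial differentiation, had ratios of 0.459 and 0.475 for Ni-E and 0.918 in both replicates for Ni-W.

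SULT2B1, which sulfates cholesterol, was the only recovered gene of 58 expressed genes of xenobiotic metabolism. Of the 58, 8 met the fall limit, SULT2B1 among them, beside 2.71% of all expressed genes. Of these 8, 4 were still at 0.6 or less, beside 36.7% of all 324 such genes. The median Ni-E/UT ratio of the 58 was 0.998. Of the 82 tested genes of the list other than SULT2B1, edgeR called 5 higher and 2 lower in Ni-E vs UT, beside 1.45% and 0.71% of all tested genes. At an unadjusted p below 0.05, 14 were higher and 13 lower, beside 7.19% and 5.03%. DESeq2 called 6 higher and 6 lower, beside 2.79% and 1.63%. SULT2B1 was at 3.87 and 5.58 TPM in UT, 1.9 and 3.12 in Ni-E, and 3.82 and 5.17 in Ni-W. CHST3, a chondroitin sulfotransferase, had a mean Ni-E/UT ratio of 0.492. Its relatives CHST2 and CHST15 had Ni-E/UT ratios of 10.6 and 11.6, and of 2.31 and 2.14. The median mean Ni-E/UT ratio of all 5 expressed relatives was 1. PIFO, a protein of the primary cilium, had a mean Ni-W/UT ratio of 0.827. The long noncoding RNA CASC22 had 3 and 10 estimated counts in UT, 0 and 2 in Ni-E, and 3 and 11 in Ni-W, numbers too small to fix a ratio. LOC105369201 was at 7.65 and 7 TPM in UT, 2.43 and 2.36 in Ni-E, and 9.64 and 6.28 in Ni-W.

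**Figure D4:**
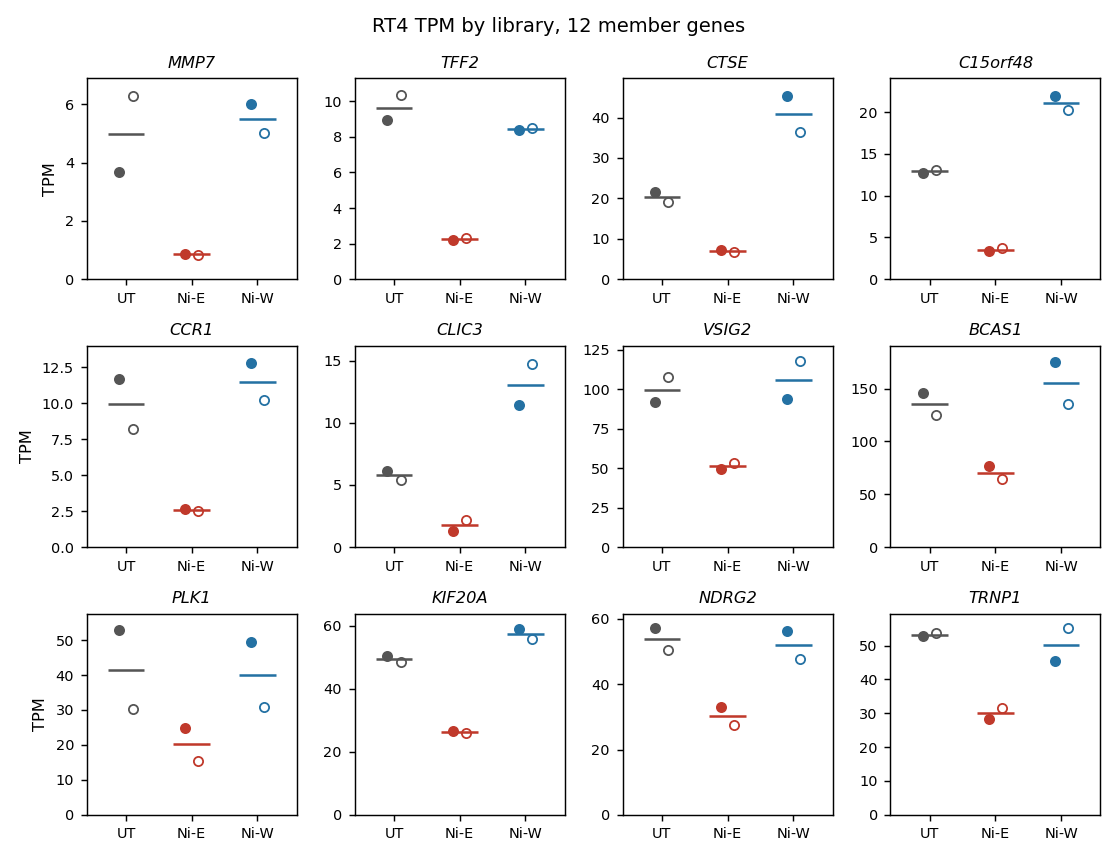
TPM of 12 members in each RT4 library, with filled points for replicate 1, open points for replicate 2 and a bar at the mean of the 2, on linear axes from 0. In each panel both Ni-E points lie below all UT and Ni-W points, and in CTSE, C15orf48 and CLIC3 both Ni-W points lie clearly above UT.

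Genes just outside the limits show how the edge was drawn. Inside the limit of 0.6, the larger Ni-E/UT ratio was 0.595 for TRNP1, 0.595 for SULT2B1 and 0.598 for MYLK. Outside it were UPK1B with 0.604, BAMBI with 0.608 and TCEAL3 with 0.612. At the other limit, TCEAL8 with 0.8, PIFO with 0.806 and LIMD2 with 0.809 were inside, and SPINK1 with 0.798, KMO with 0.797 and GSTM3 with 0.792 outside. UPK1B, a uroplakin of the urothelial plaque, was at 105.92 and 86.24 TPM in UT, 57.99 and 51.88 in Ni-E, and 117.48 and 82.57 in Ni-W. Of 25 expressed genes of urothelial differentiation, KRT13, KRT20, PSCA, UPK1A and UPK2 met the fall limit, beside 2.71% of all expressed genes. Of these 5, 4 were still at 0.6 or less after washout and 0 recovered by the limits used. Of all 324 genes that met the fall limit, these shares were 36.7% and 13.6%. In edgeR, 4 of the 26 tested genes of this list were called lower and 0 higher in Ni-E vs UT, beside 0.71% and 1.45% of all tested genes. At an unadjusted p below 0.05, 8 were lower and 1 higher, beside 5.03% and 7.19%, and DESeq2 called 6 lower and 1 higher, beside 1.63% and 2.79%.

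The fit over all genes gives the background. In Ni-E vs UT, edgeR called 103 of 14502 tested genes lower (0.71%). Of the 43 members tested, 6 were among them, namely BCAS1, C15orf48, CCR1, CTSE, SPNS2 and VPS35L. Since the rule used this contrast, nothing is read from the 6. In Ni-W vs UT, 73 genes were called higher (0.503%) and 14 lower (0.0965%), with 0 members. At an unadjusted p below 0.05, 2 members were higher and 0 lower in this contrast, beside 5.99% and 3.14% of all tested genes, and DESeq2 called 1 member higher, beside 2.27%. These shares are near the background, and the rule used this contrast too. In Ni-W vs Ni-E, edgeR called 0 genes at all, with 808 genes at an unadjusted p below 0.05. DESeq2 called 139 genes, and edgeR with a replicate block called 655. The 2 limits of the rule put every member higher in this contrast, so no count of members is read from it. A p that misses the threshold does not show that Ni-W and UT levels were equal, nor does the limit of 0.8 in the rule.

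The 43 members placed on GENCODE version 44 were spread over 18 chromosomes, with at most 5 on one (chromosomes 3, 16 and 17), and 42 were protein-coding. Only 3 pairs lay within 0.2 Mb of each other. SRPX2 (chrX:100644195-100675788, plus strand) and SYTL4 (chrX:100671783-100732123, minus strand) overlap by 4006 bases. The library kit used does not mark strand, and reads from the overlap cannot be told apart. SRPX2 was at 42.92 and 40.1 TPM in UT, 22.87 and 22.12 in Ni-E, and 41.68 and 39.92 in Ni-W. SYTL4 was at 37.13 and 30.61 TPM in UT, 19.6 and 16.4 in Ni-E, and 33.42 and 25.96 in Ni-W. TSPAN6, the neighbour of SRPX2 on the other side, also met the fall limit, with 120.64 and 100.82 TPM in UT, 57.04 and 60.06 in Ni-E, and 101.24 and 73.64 in Ni-W. CSTF2, beyond SYTL4, did not, with Ni-E/UT ratios of 0.895 and 1.04.

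TFF2 (chr21:42346357-42350997, minus strand) and TMPRSS3 (chr21:42371887-42396091, minus strand) lay 0.021 Mb apart, with TFF1 between them. The nearest expressed genes outside the pair, ABCG1 and SLC37A1, had Ni-E/UT ratios of 0.975 and 1.11, and of 1.11 and 1.09. ADCY5 (chr3:123282296-123449090, minus strand) and MYLK (chr3:123610049-123884332, minus strand) lay 0.161 Mb apart. HACD2, between them, had Ni-E/UT ratios of 0.792 and 0.948. MYLK overlaps the antisense MYLK-AS1, at 0.33 to 2.6 TPM, and reads there cannot be told apart by strand either.

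Of the 44 members, 33 had a promoter of 300 bases (250 before to 50 after the start) in the RefSeq table. CCAAT, searched on both strands like all motifs here, was in 15 of 33 (45.5%), beside 37.6% of 9323 promoters of expressed genes and 35.7% of all 27305 promoters. TTTGAA was in 6 (18.2%), beside 9.25% and 15.4%. GGGCGG (GC box) was in 57.6%, beside 70.5% and 44.6%. CCGGAAG (ETS) was in 1 promoter, that of SULT2B1 (3.03%), beside 20.9% and 10.7%. ACGTG, the core of the hypoxia response element, which also lies within the E-box CACGTG, was in 8 (24.2%), beside 27.2% and 21.6%. CACGTG was in 9.09%, beside 10.3% and 7.43%.

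TGANTCA was in 2 (6.06%), MMP7 and SRPX2, beside 4.6% of expressed and 7.76% of all promoters. TATAAA was in 2 (6.06%), MMP7 and MYLK, beside 5.28% and 12%. TGACGTCA (CRE) was in 1, LMCD1, beside 3.36% and 1.98%, and TTTCGCGC (E2F) in 0, beside 1.02% and 0.546%. TGANNNNGC, the core of the antioxidant response element, was in 39.4%, beside 43.3% and 42.1%. The median GC content of member promoters was 61.0%, beside 65.3% and 58.3%, and the median number of CpG dinucleotides 14, beside 26 and 14. No test was made of these shares.

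H3K4me3 in BEAS-2B cells was not used to choose the members. Promoter values, in RPKM over 2 kb on each side of the start site, were found for 42 members. The RPKM values of each library are whole multiples of 1 step within 0.0006 RPKM, for steps of 0.00881 (UT), 0.00667 (Ni-E) and 0.00835 RPKM (Ni-W), so that the reads behind each value could be counted. As there was 1 library per condition, no difference between conditions could be tested, and the intervals below are 95% Poisson intervals that cover counting error only.

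The members had a lower median of H3K4me3 in untreated BEAS-2B cells than all genes expressed in RT4, and a higher one than the other genes that met the fall limit. The median was 2.19 RPKM in the members, 6.24 in all 11210 expressed genes with values, 1.57 in all 26237 genes, 0.528 in 111 of the 119 genes still low after washout and 1.22 in 146 of the 161 genes with neither outcome. At least 1 RPKM was found in 28 members (66.7%), in 87.5% of expressed genes, in 52.8% of all genes and in 42.3% and 52.7% of the 2 other groups. KIF20A was at 16.3 RPKM (15.6 to 17.1) and PLK1 at 9.9 (9.33 to 10.5), above 99.5% and 91.5% of all genes. MMP7 was at 0.273 (0.186 to 0.388), TFF2 at 0.493 (0.373 to 0.641) and CTSE at 0.317 (0.222 to 0.439). Of the 8 members with the lowest mean Ni-E/UT ratio in RT4, CASC22 had no value here, CLIC3 was at 2.31 RPKM and the 6 others were below 1 RPKM.

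Changes in the mark were measured by the chromatin dynamic score, the square root of a promoter's RPKM over the library's median RPKM in 1 condition minus that in the other. The members had a median score of 0.0338 in Ni-E vs UT, beside 0.0528 for all genes and 0.0771 for expressed genes. It was -0.0418 without scaling to the library medians, beside -0.0168 for all genes. After quantile normalization it was -0.0115, beside 0 for all genes. The score was higher by more than counting error (the 95% range of the read counts) in 8 of 42 members and lower in 1, beside 29.1% and 3.74% of all genes. The 8 are 19% of the members, and 39.6% of expressed genes were higher. The highest scores of members with at least 1 RPKM in either library were those of PLK1 (0.269), KIF20A (0.185) and PIF1 (0.168). The lowest were those of APOE (-0.157), LIMD2 (-0.0977) and PLEK2 (-0.0973), of which only APOE was past counting error. For PLK1 the levels were 9.9 RPKM in UT and 10.7 (10.2 to 11.3) in Ni-E, whose intervals overlap. For KIF20A they were 16.3 and 16.1 RPKM, so that the sign of its score rests on the scaling to the library medians.

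In Ni-W vs UT, the contrast with a single colony, the median score of the members was -0.0769, beside -0.0266 for all genes and -0.188 for expressed genes. Without scaling to the library medians it was -0.333, beside -0.193 for all genes. The score was past counting error and lower in 19 members and higher in 7, beside 36.3% and 19.9% of all genes. The 19 are 45.2% and the 7 are 16.7% of the members, and among expressed genes the shares were 60.7% lower and 11.6% higher. A score below 0 was found in 55.4% of all genes and 75.7% of expressed genes. Of 15 members with at least 4 RPKM in UT, 14 had scores below 0 (93.3%), beside 83.5% of expressed genes at that level. Of 14 members under 1 RPKM, 4 had scores below 0 (28.6%), beside 33.9% of expressed genes at that level.

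The highest Ni-W vs UT score was that of C15orf48 (0.43), with 0.625 RPKM (0.488 to 0.789) in UT, 0.5 (0.393 to 0.627) in Ni-E and 1.26 (1.07 to 1.48) in Ni-W. The next was MMP7 (0.252), with 0.273 RPKM in UT and 0.501 (0.382 to 0.645) in Ni-W. Among members with at least 1 RPKM in either library, C15orf48 was followed by KCNS3 (0.215) and PIFO (0.213). For KCNS3 the levels were 2.34 RPKM (2.07 to 2.64) in UT and 2.31 (2.05 to 2.6) in Ni-W, with intervals that overlap, so that its score rests on the scaling. The lowest scores were those of TRNP1 (-0.652), VPS35L (-0.381) and DLX3 (-0.317). TRNP1 was at 7.57 RPKM (7.08 to 8.1) in UT, 7.47 (7.04 to 7.92) in Ni-E and 2.67 (2.39 to 2.98) in Ni-W, so that the interval of Ni-W lay below the other 2. These values come from another cell line and a longer washout than the RNA values, so they are set beside them and not joined to them.

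**Figure D5:**
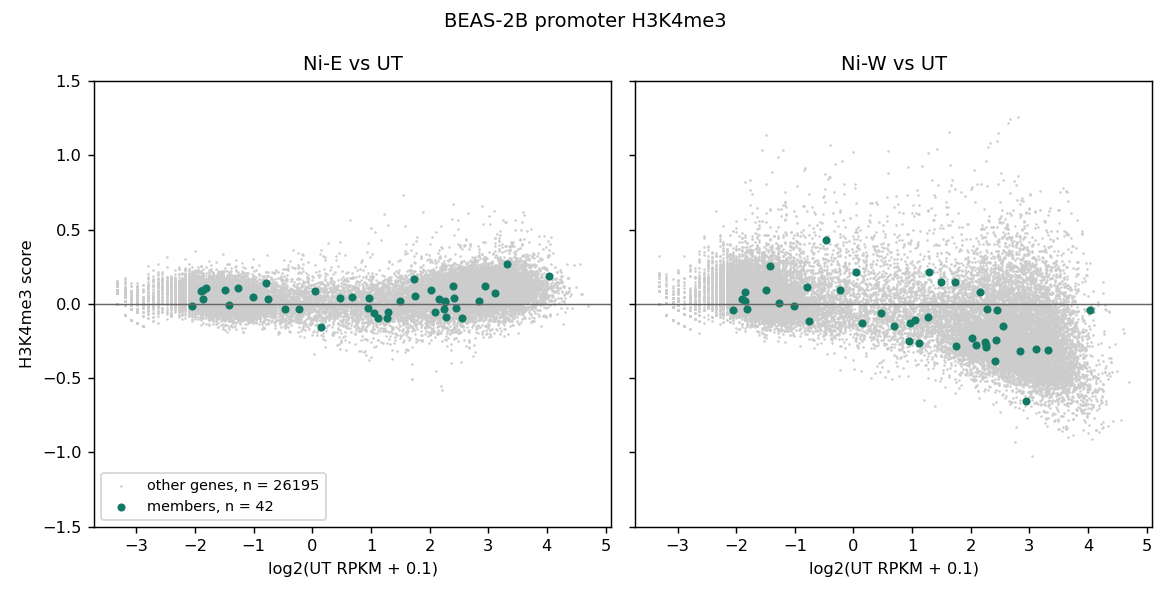
Each point is the promoter of 1 gene in BEAS-2B cells, with log2(RPKM + 0.1) in UT on the x axis and the chromatin dynamic score against UT on the y axis, for Ni-E (left) and Ni-W (right), 1 library each. Green points are 42 members and grey points other genes, and 3 genes other than members lie outside the y axis of -1.5 to 1.5. In the right panel members with high UT levels lie mostly below 0, as do other genes, with C15orf48 the highest and TRNP1 the lowest member.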

How the data were processed

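RNA-Seq of RT4 and H3K4me3 ChIP-Seq of BEAS-2B cells were analysed. Each RNA-Seq library has 1 gene table of RSEM layout, in which the authors give an estimated count, a TPM and an FPKM. The methods of the study name STAR, hg19 and BioWardrobe RPKM, and which alignments lie behind the RSEM values is not given in the sources used here. The deposited TPM values gave all levels and ratios, and the deposited FPKM values were used in 1 alternative. The deposited estimated counts, of which 97.94% were whole within 0.005, were rounded and tested with edgeR 4.0.16 (quasi-likelihood, TMM factors, edgeR's expression filter, 1 model of 3 groups, Benjamini-Hochberg adjustment), with DESeq2 1.42.0 as an alternative. ChIP-Seq reads were mapped with BWA (hg38) and made non-redundant, and the deposited values are promoter RPKM without peak calling. A floor of 3 reads equals 0.0264 RPKM (UT), 0.02 (Ni-E) and 0.0251 (Ni-W). Input libraries were not used here, and 1 marker gene is not reported here by name.

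The members and the gene lists were chosen with earlier results of these data known, and roles and gene families were assigned after the members were seen. Members were named by rule when they were among the 8 with the lowest mean Ni-E/UT ratio, the 8 with the highest mean UT TPM, the 5 with the highest mean Ni-W/UT ratio, the 3 nearest to each limit (with 3 genes outside it), the 3 with the highest and lowest scores against UT among promoters with at least 1 RPKM in either library, or in a gene list. The others are named, and per-library values added for some, so that all 44 are accounted for. Positions are from GENCODE version 44 on GRCh38. Scripts were tested on simulated data. Replicates were compared as the labels number them.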

Additional observations from a re-analysis of the deposited data

How the results depend on the processing

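The number of members was 44. It was 122 with ratios of group means, 19 when every library was compared with every UT library, 11 at limits of 0.5 and 0.9, 123 at limits of 0.67 and 0.75, and 98 to 191 with 1 replicate left out. It was from 36 to 60 under the other 6 alternatives of the rule (pseudocount, minimum level, FPKM or CPM in place of TPM). Only 18 members were kept by every alternative other than the stricter limits and the minimum of 5 TPM. Calls in Ni-E vs UT numbered 314, and 730 with DESeq2, 209 with at least 10 counts in every library, and 0 to 320 with 1 library left out, with 0 when either Ni-E library was left out, 44 without UT replicate 1 and 18 without UT replicate 2. Calls in Ni-W vs UT numbered 87, and 442 with DESeq2, 193 without the filter, 54 with at least 10 counts in every library, 0 with only the 2 groups, and 0 to 38 with 1 library left out (2 without UT replicate 1, 0 without UT replicate 2 or either Ni-E library, 32 and 38 without Ni-W replicates 1 and 2). Calls in Ni-W vs Ni-E numbered 0, and 139 with DESeq2 and 14 without the filter, and 0 to 0 with 1 library left out. Members called lower in Ni-E vs UT numbered 6, and 26 with DESeq2 and 0 to 4 with 1 library left out (0 without either UT or either Ni-E library, 3 without Ni-W replicate 2). Members called higher in Ni-W vs Ni-E numbered 0, and 16 with DESeq2, 3 without the filter and 0 to 0 with 1 library left out. Where an arm is left with 1 library, it is assumed to vary like the other groups. The rule fixes the direction of the members in Ni-E vs UT and Ni-W vs Ni-E, so nothing is read from these counts of members. Of all genes, DESeq2 called 1.63% lower in Ni-E vs UT and 0.606% higher in Ni-W vs Ni-E. Without the filter, edgeR called 9 of all 19464 genes higher in Ni-W vs Ni-E.

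With a replicate block, calls numbered 1833 in Ni-E vs UT, 1243 in Ni-W vs UT and 655 in Ni-W vs Ni-E, with 43 members lower in the first, 2 higher in the second (CTSE and CLIC3, where 5.79% of all genes were called higher) and 38 higher in the last, a direction that the rule fixes in the first and last. Of the 53 mitotic genes other than members, 1 was then called lower in Ni-E vs UT, 2 higher in Ni-W vs UT and 13 higher in Ni-W vs Ni-E, beside 5% lower, 5.79% higher and 2.72% higher of all genes. The numbers come from a suffix in the sample titles, and the labels name no shared batch for them. The differences of replicate 2 from replicate 1 had correlations of 0.671 (UT and Ni-E), 0.765 (UT and Ni-W) and 0.695 (Ni-E and Ni-W) across 8215 genes, which is a hint from the data that same-numbered samples share something, not from the design. The rule itself compares libraries of the same number.

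For H3K4me3, the median score of the members in Ni-E vs UT was 0.0338. It reversed to -0.0418 without median scaling, -0.0115 with quantile normalization and -0.05 as a log2 ratio of RPKM + 1. The median of all genes moved with it, from 0.0528 to -0.0168, 0 and -0.017, so that the change of sign is not particular to the members. In Ni-W vs UT it was -0.0769, beside -0.0266 for all genes. It was -0.333 without median scaling and -0.441 as a log2 ratio, beside -0.193 and -0.225 for all genes. For 30 members with at least 1 RPKM in any library it was -0.148, beside -0.197 for all such genes. There the members were the less negative. The median UT level of those 30 was 4.05 RPKM, not 2.19. It was 6.1 RPKM for all such genes and 1.57 for all genes, so the members went from above to below. The causes were not tested, except that the log2 ratio is on another scale. With 2 replicates and low counts in many members, single ratios are imprecise, and the ChIP values have no replicate.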
